A study of Mus musculus with 6 samples.

Results

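Heavily mismatched V sequences are rearranged heavy-chain sequences whose V gene alignment carries 5 or more substitutions against the germline V gene that was called for it. They were chosen from the deposited alignment trace, counting pairs of differing bases and leaving gaps out, and they are set against sequences with 0 substitutions. Of 228609 sequences in 6 libraries, 2726 were heavily mismatched (1.19%, Wilson 95% interval 1.15 to 1.24) and 210371 had 0 substitutions. The libraries were made by VDJ-seq, which reads recombined immunoglobulin heavy-chain (Igh) genes from genomic DNA. The DNA came from splenic B cells of 12-week-old C57BL/6 mice, enriched by magnetic depletion of other cells with 4 biotin-labelled antibodies. In 4 libraries the amount of starting DNA was varied (500 ng, 1 µg, 2.5 µg and 5 µg), and in another pair, Q5_Q5 and Q5_vent, the combination of DNA polymerases; for this pair the sources used here do not state the DNA amount. Each setting is 1 library, and nothing in the labels says whether the libraries came from different mice, so the spread between libraries may be technical.

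The variable part of a heavy chain is assembled from V, D and J segments, and the V segment is read out close to its germline form in a B cell that has not met antigen. An enzyme, AID, acts on V segments in germinal centre B cells, at C (or G, for the other strand) in preferred sequence contexts. The somatic hypermutation that it starts differs from cell to cell. A V segment that the germline list used for alignment lacks, or holds in another form, also aligns with mismatches, but with the same ones in every cell that uses it.

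The number of heavily mismatched sequences per library followed library size: 121 of 8704 for 500 ng, 185 of 17055 for 1 µg, 699 of 56006 for 2.5 µg, 1324 of 112320 for 5 µg, 176 of 15034 in Q5_Q5 and 221 of 19490 in Q5_vent. As shares of the libraries these were 1.39%, 1.08%, 1.25%, 1.18%, 1.17% and 1.13%, and their Wilson 95% intervals overlapped. The FUNCTIONAL flag marks a sequence as productive (T: in frame, with no stop codon) or non-productive (F), and 384 of the 2726 heavily mismatched sequences were productive. They made up between 0.161% (1 µg) and 0.261% (Q5_vent) of the productive sequences of a library. Among non-productive sequences the share lay between 3.45% (Q5_vent) and 4.51% (500 ng), above the productive share in all 6 libraries. The median number of substitutions was 8, with a range of 5 to 35. At the threshold, 198 sequences had exactly 5 substitutions and 317 had exactly 4. The distribution was not smooth: among non-productive sequences 453 had 7 substitutions, 323 had 13 and 288 had 18, against 32 with 11 and 37 with 14. Among productive sequences 47 had 18 substitutions, against 2 with 17 and 1 with 19.

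**Figure D1:**
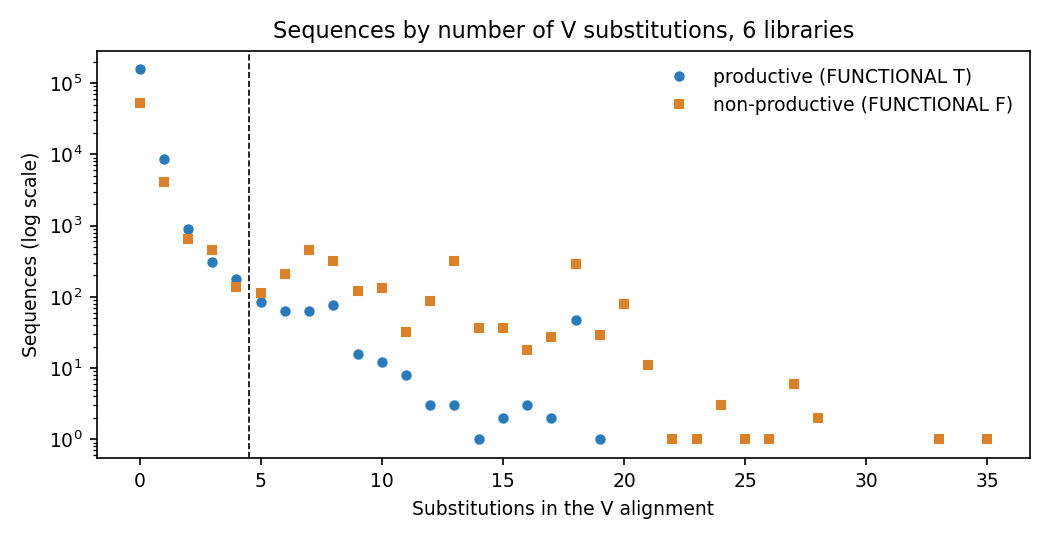
Number of sequences (log scale) by the number of substitutions in the V alignment, all 6 libraries together, with productive sequences as circles and non-productive sequences as squares; the dashed line marks the threshold, and numbers with 0 sequences have no point. There are 84 productive sequences at 5 substitutions, against 156927 at 0, while the non-productive counts have separate peaks at 7, 13 and 18 substitutions. The productive counts also have a peak at 18, with 47 sequences.

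Most of the sequences were called as 3 V genes. Of 176 V gene names in the files, 99 had at least 1 heavily mismatched sequence, but Ighv1-87 held 933 of them, Ighv3-2 696 and Ighv1-27 351, together 1980 of 2726 (72.6%). These 3 genes also had almost no other sequences: 933 of 940 sequences called Ighv1-87 were heavily mismatched, as were 696 of 697 called Ighv3-2 and 351 of 351 called Ighv1-27. RefSeq (GRCm38.p6) lists Ighv3-2 at chr12:114033803-114034097 and Ighv1-27 at chr12:114804616-114804909, both as V segment pseudogenes; it lists no gene named Ighv1-87. Most of these sequences were non-productive, with 133 productive sequences called Ighv1-87, 0 called Ighv3-2 and 1 called Ighv1-27. With at least 5% of a gene's sequences heavily mismatched as the cut, 5 of 115 V genes with 100 or more sequences passed (4.35%): these 3, Ighv1-63 with 82 of 1022 and Ighv5-1, another RefSeq V segment pseudogene, with 14 of 266. Substitutions chose both the sequences and these genes, so this count is a description. The aligned V segments are shown for the 3 leading genes, over a long stretch of germline positions, because they hold most of the sequences. Capitals in the sequenced form mark substituted or inserted bases. In the line under it, the germline gene as called, capitals mark the bases that were substituted or deleted.
Ighv1-87 25 to 260: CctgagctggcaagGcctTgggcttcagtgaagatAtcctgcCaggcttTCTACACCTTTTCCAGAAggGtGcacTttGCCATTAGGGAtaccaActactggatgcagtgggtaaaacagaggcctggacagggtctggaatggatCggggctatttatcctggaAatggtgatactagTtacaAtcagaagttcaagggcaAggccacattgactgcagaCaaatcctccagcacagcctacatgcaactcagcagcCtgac
Ighv1-87 25 to 260, germline as called: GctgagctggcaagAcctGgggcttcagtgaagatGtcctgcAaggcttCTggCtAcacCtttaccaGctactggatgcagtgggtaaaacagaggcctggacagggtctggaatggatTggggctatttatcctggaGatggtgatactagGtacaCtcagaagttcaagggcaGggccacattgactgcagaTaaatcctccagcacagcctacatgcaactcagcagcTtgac
Ighv3-2 21 to 250: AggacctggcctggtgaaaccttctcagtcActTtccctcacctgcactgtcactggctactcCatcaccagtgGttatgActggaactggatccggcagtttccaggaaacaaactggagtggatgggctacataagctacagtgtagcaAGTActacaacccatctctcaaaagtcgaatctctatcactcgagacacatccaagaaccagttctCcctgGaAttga
Ighv3-2 21 to 250, germline as called: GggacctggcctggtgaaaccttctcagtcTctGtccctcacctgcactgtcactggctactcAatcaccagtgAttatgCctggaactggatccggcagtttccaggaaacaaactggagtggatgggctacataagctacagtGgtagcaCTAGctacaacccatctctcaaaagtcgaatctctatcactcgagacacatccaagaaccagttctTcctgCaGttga
Ighv1-27 2 to 280: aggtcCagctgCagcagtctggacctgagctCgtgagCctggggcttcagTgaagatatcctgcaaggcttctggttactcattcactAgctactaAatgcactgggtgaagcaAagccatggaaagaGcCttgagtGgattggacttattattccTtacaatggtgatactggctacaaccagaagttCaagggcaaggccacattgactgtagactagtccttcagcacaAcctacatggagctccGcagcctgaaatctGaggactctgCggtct
Ighv1-27 2 to 280, germline as called: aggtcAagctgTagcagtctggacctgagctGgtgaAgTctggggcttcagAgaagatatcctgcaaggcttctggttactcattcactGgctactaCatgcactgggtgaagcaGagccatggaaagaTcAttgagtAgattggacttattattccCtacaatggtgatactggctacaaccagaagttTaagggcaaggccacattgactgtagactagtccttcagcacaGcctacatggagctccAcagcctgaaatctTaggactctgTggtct

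The Ighv1-87 form was found with exactly this trace in 293 of the 312 sequences that covered germline positions 25 to 260; the Ighv3-2 form in 303 of 312 and the Ighv1-27 form in 113 of 123 that covered their stretches. The Ighv1-87 form had substitutions along the whole stretch and an insertion of 16 bases just before position 76 and of 11 bases just before position 87. These 2 insertions were the only gaps in 331 of 933 sequences, 27 bases in all, a multiple of 3. In the 599 sequences without a gap the alignment started at position 87 or later, with a median start at position 93, and the median count of substitutions was 7, against 18 in alignments with an insertion. Ighv3-2 carried a 1-base deletion placed at position 166 or 167, next to each other in a run of G, in 695 of 696 sequences. Ighv1-27 carried a 1-base deletion at position 38 as the only gap in 146 sequences and with a second gap in 1, and 204 sequences had no gap. A deletion of 1 base shifts the reading frame inside V. Over all V genes, 49.9% of heavily mismatched sequences had a gap in the V alignment, against 0.135% of sequences with 0 substitutions.

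The substitutions of these genes were the same from sequence to sequence. Counting, at each germline position, the sequences that covered it, 18 substitutions stood in at least 95% of the covering Ighv1-87 sequences, and these made up 99.1% of all substitutions in Ighv1-87. Ighv3-2 had 13 such substitutions (99.3% of its total) and Ighv1-27 had 20 (99.0%). In Ighv1-63 there were 8, making up 88.8%. Ighv6-3, Ighv1-22 and Ighv1-64, the V genes with the most productive heavily mismatched sequences after Ighv1-87, had none. The commonest substitution in Ighv6-3 stood in 42.1% of its covering sequences, in a gene whose 20 heavily mismatched sequences came from only 14 clones (distinct combinations of V gene, J gene and CDR3).

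**Figure D2:**
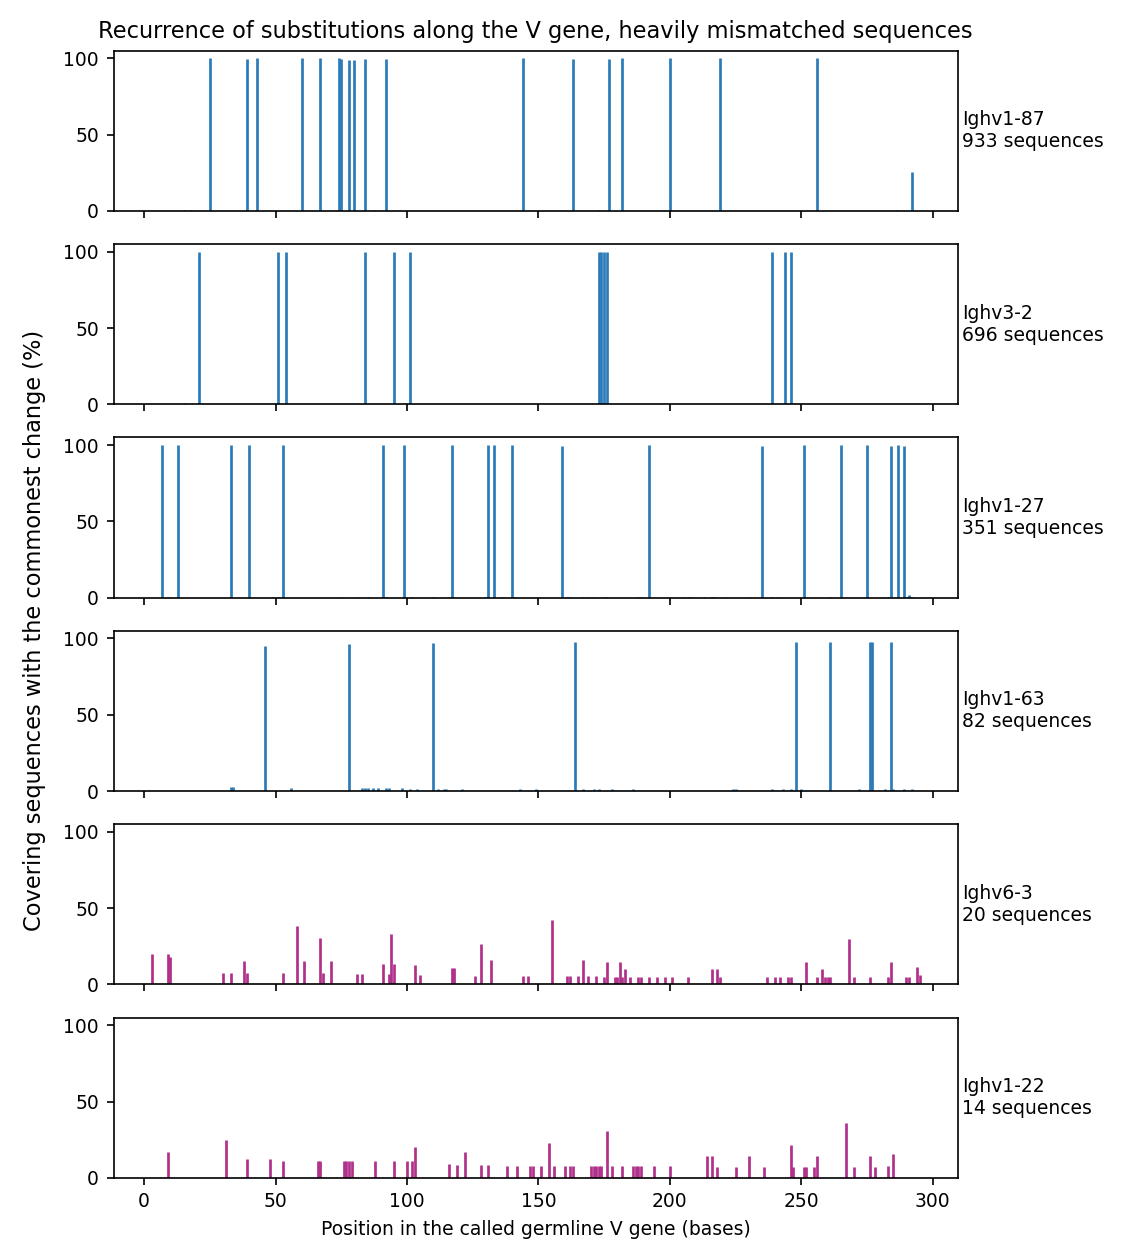
Share of heavily mismatched sequences that carry the commonest substitution at each germline position (percent of the sequences covering it, positions covered by at least 5 sequences), for 6 called V genes with the number of sequences at the right. Ighv1-87, Ighv3-2, Ighv1-27 and Ighv1-63 show a few positions near 100% and almost nothing between them; Ighv6-3 and Ighv1-22 show many low positions, none above 42.1%.

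The same held across libraries. For each library in turn, heavily mismatched sequences of the same V gene in the other 5 libraries were taken, 1 per clone. A substitution was called recurring when at least 5 of them covered its position and at least 25% of those carried it. Of the substitutions in non-productive heavily mismatched sequences, 93.8% were recurring, with libraries between 89.7% (Q5_vent) and 94.8% (2.5 µg). In productive ones the share was 50.3%, between 43.6% (Q5_vent) and 60.1% (1 µg), lower than the non-productive share in all 6 libraries. Without Ighv1-87, Ighv3-2 and Ighv1-27 the shares were 64.9% for non-productive and 8.45% for productive sequences. In sequences with only 1 or 2 substitutions, the productive share was 4.40%.

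Whole V sequences were then grouped regardless of the gene called, allowing 2 edits and leaving out the last 6 bases, which trimming at the junction can change. A group was called a recurring sequence when it held at least 5 clones from at least 3 libraries. There were 9 recurring sequences, and they held 2340 of the 2726 heavily mismatched sequences (85.8%, Wilson 95% interval 84.5 to 87.1). They took in 2186 of 2342 non-productive but only 154 of 384 productive ones (93.3% and 40.1%). The largest, mainly called Ighv1-87, had 981 sequences from 963 clones, of which 53 were called Ighv1S26. The second, mainly Ighv3-2, had 745 sequences from 728 clones, with 50 called Ighv3-1. The third, mainly Ighv1-27, had 439 from 431 clones, with 72 called Ighv1-26 and 16 called Ighv1-15. So a single V sequence carried several gene names, and the less frequent names went with shorter alignments. Heavily mismatched Ighv1S26 calls had a median V alignment of 125 bases, Ighv1-26 calls of 103 bases and Ighv3-1 calls of 128 bases, against 205 for Ighv1-87, 235 for Ighv1-27 and 257 for Ighv3-2. A further 617 sequences with only 1 to 4 substitutions lay exactly within one of the recurring sequences, 237 of them in the first and 290 in the second; their alignments were short, with medians of 100 and 87 bases.

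The fourth recurring sequence had 81 sequences, 78 of them called Ighv1-63, from 80 clones. None was productive, and all 81 had a gap: 78 of the 82 heavily mismatched sequences called Ighv1-63 had a 1-base insertion just before position 251 as their only gap. Unlike the first 3 genes, Ighv1-63 (RefSeq V segment, chr12:115495625-115496058) also had 889 sequences with 0 substitutions. The fifth had 53 sequences, 30 called Ighv1-26 and 23 called Ighv1-19, and 2 were productive. The 107 heavily mismatched sequences called Ighv1-26 (RefSeq V segment, chr12:114788372-114788665) stood beside 10888 with 0 substitutions. The 3′ part of the aligned V is shown for both genes, with capitals as above, since here a few sequences differ from a gene that mostly aligns without a mismatch. The Ighv1-63 form was found in 72 of 76 covering sequences. The Ighv1-26 form was the commonest over all recurring sequences called by that gene, in 42 of 72 covering ones. These include the 72 called Ighv1-26 in the third recurring sequence as well as the 30 in the fifth. Up to position 280, where the Ighv1-27 line above ends, the Ighv1-26 form has the same letters as that line. So the printed form is that of the third recurring sequence, and the fifth is not shown by itself.
Ighv1-63 240 to 290: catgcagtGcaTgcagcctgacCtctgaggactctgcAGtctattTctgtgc
Ighv1-63 240 to 290, germline as called: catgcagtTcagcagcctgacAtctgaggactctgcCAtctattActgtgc
Ighv1-26 210 to 290: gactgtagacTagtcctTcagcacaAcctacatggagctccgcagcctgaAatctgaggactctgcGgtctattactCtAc
Ighv1-26 210 to 290, germline as called: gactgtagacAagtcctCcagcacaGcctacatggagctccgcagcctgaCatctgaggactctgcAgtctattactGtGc

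The remaining 4 recurring sequences were small. Ighv5-1 led 1 with 14 sequences, 5 of them productive, each with 8 substitutions in an alignment of 47 or 48 bases. Ighv1S45 led 1 with 11 sequences, up to 27 substitutions and a 2-base insertion in all 11. Ighv1S30 led 1 with 11, and Ighv1-42 led 1 with 5 sequences in 3 libraries. These counts are too low to compare libraries.

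Each of the 4 largest recurring sequences was found in all 6 libraries. The one led by Ighv1-87 made up 0.460% of the 500 ng library, 0.451% of 1 µg, 0.434% of 2.5 µg, 0.424% of 5 µg, 0.446% in Q5_Q5 and 0.40% in Q5_vent. All 6 intervals overlapped, the narrowest being 0.387 to 0.464% at 5 µg. The one led by Ighv3-2 lay between 0.231% in Q5_vent (interval 0.173 to 0.309) and 0.460% at 500 ng (0.338 to 0.625). The interval of Q5_vent ended just below that of 2.5 µg (0.309 to 0.408) and clearly below that of 500 ng, and it overlapped the other 3. The one led by Ighv1-27 lay between 0.129% (1 µg) and 0.237% (2.5 µg), with an interval at 1 µg (0.0852 to 0.195) that ended below the one at 2.5 µg, and the one led by Ighv1-63 between 0.0117% (1 µg, 2 sequences) and 0.0689% (500 ng, 6 sequences). Intervals cover counting error only.

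**Figure D3:**
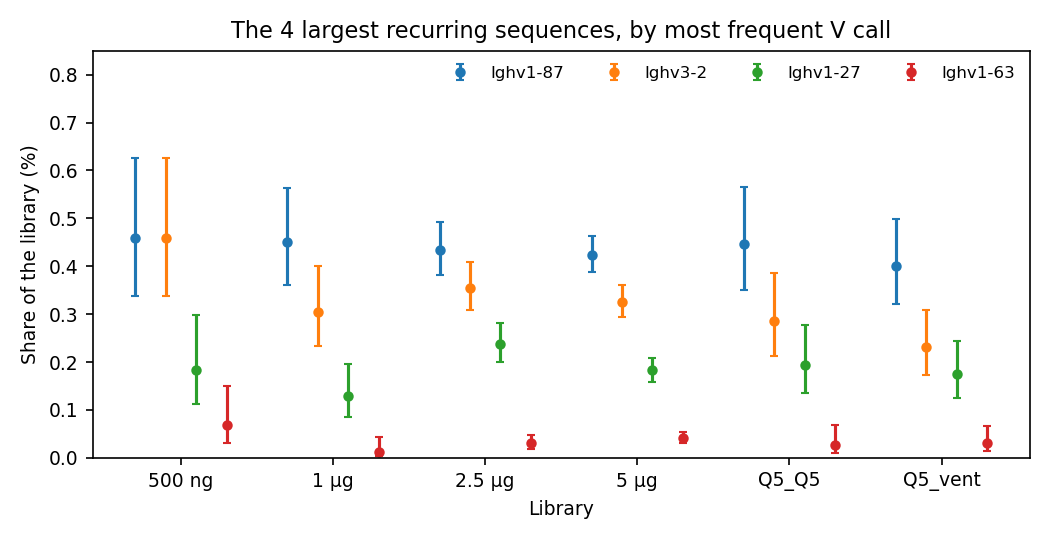
Share of each library (percent of its sequences) taken by the 4 largest recurring sequences, named by their most frequent V call; points are libraries and bars are Wilson 95% intervals. The sequence led by Ighv1-87 stays between 0.40% and 0.460% in all 6 libraries, and that led by Ighv1-63 is at or below 0.0689%.

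The recurring sequences had few productive members. Of the sequences led by Ighv3-2, 96.6% had a stop codon and 0.940% were productive; of those led by Ighv1-27, 97.3% and 0.911%. Those led by Ighv1-87 had a stop codon in 74.4%, and 134 of 981 (13.7%) were productive. Over all heavily mismatched sequences 78.9% had a stop codon and 14.1% were productive, against 12.2% and 74.6% of sequences with 0 substitutions. These flags are read in the same V alignment that chose the sequences, so they are given as a description.

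The in-frame flag says whether V and J are joined in the same reading frame. It is part of the productive flag, so its test is not fully independent of the V alignment that chose the sequences. That alignment had a gap in 49.9% of heavily mismatched sequences and in 0.135% of those with 0 substitutions. The in-frame share of heavily mismatched sequences was 43.8% with 500 ng of DNA, 37.8% with 1 µg, 37.9% with 2.5 µg, 39.1% with 5 µg, 40.3% in Q5_Q5 and 43.0% in Q5_vent. In sequences with 0 substitutions it was 78.1%, 78.4%, 78.7%, 78.5%, 78.9% and 78.0% in the same order. The groups did not overlap, and the mean difference was -38.1 percentage points (SD 2.81, n = 6 libraries, lower in 6 of 6; exact two-sided sign-flip permutation test p = 0.03125, the smallest that 6 pairs allow; Benjamini-Hochberg adjusted p = 0.0437 over 14 measures). Recurring sequences were in frame in 803 of 2340 cases (34.3%, interval 32.4 to 36.3), with values of 37.1% for the one led by Ighv1-87, 31.8% for Ighv3-2 and 29.4% for Ighv1-27. Sequences with 0 substitutions were also weighted to the V gene mix of the heavily mismatched ones. Only V genes with at least 5 sequences of 0 substitutions in the library entered, which left out Ighv1-87, Ighv3-2 and Ighv1-27. For the remaining V genes the difference was -21.5 points, lower in 6 of 6 libraries. Without the recurring sequences it was -10.8 points, lower in 5 of 6 (exact p = 0.0625). Where RefSeq lists the called V gene as a pseudogene, 31.8% of 1074 heavily mismatched sequences were in frame, against 53.1% of 5204 sequences with 0 substitutions. These groups hold mostly different genes. Ighv3-2 (696) and Ighv1-27 (351) made up most of the 1074 and had no sequence with 0 substitutions. Ighv7-3 (1842) and Ighv7-1 (1188) made up most of the 5204.

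**Figure D4:**
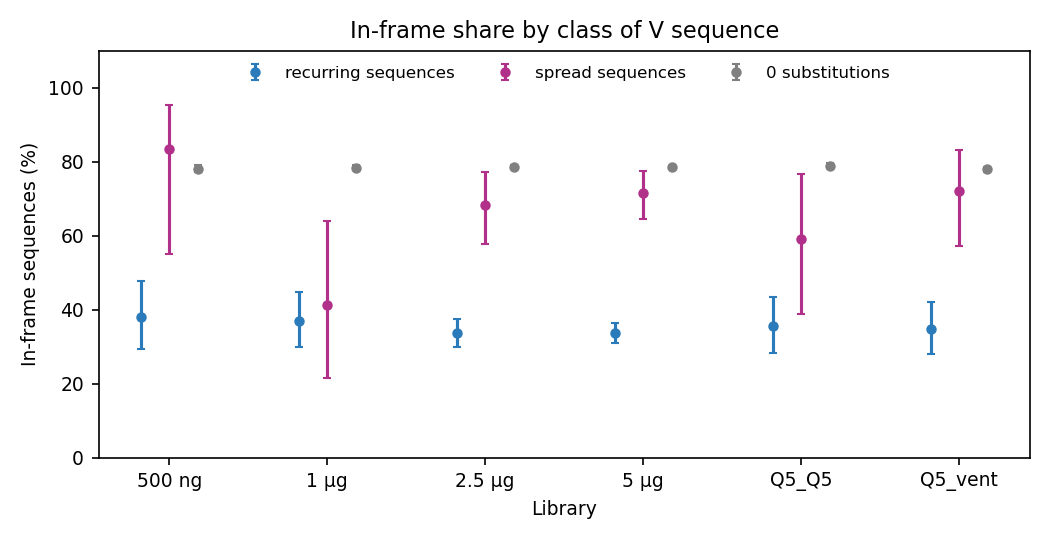
In-frame share (percent) of recurring heavily mismatched sequences, of spread heavily mismatched sequences and of sequences with 0 substitutions, by library; bars are Wilson 95% intervals. Recurring sequences lie between 33.6% and 38.1%, below the sequences with 0 substitutions (78.0% to 78.9%) in each library, while the spread sequences, only 12 at 500 ng and 17 at 1 µg, lie between 41.2% and 83.3%.

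Outside the recurring sequences were 386 heavily mismatched sequences. In 21 of them all substitutions fell in the first 30 aligned bases and the alignment ran on at least as far again without one, and these are counted apart. The other 365 are called spread sequences. They came from 333 clones and 88 V genes, and 215 were productive (58.9%), against 6.58% of the recurring sequences. Of their substitutions, 2.69% in productive and 16.3% in non-productive sequences were recurring by the measure across libraries. Low shares follow in part from the choice, since the recurring sequences had been taken out, so they are a description. In V genes with too few covering sequences in the other libraries, no substitution could be called recurring. Gaps were rare in productive spread sequences (1 of 215) and less so in non-productive ones (36 of 150). Their median V alignment was 285 bases in productive sequences, against 171 bases in productive sequences with 0 substitutions.

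Spread productive sequences were more frequent in long alignments, where more bases can differ. They made up 0.0284% of productive sequences with V alignments under 150 bases (20 of 70317), 0.141% of those of 150 to 249 bases (64 of 45440) and 0.253% of those of 250 bases or more (131 of 51698). In the longest class the libraries lay between 0.0796% (1 µg, 3 sequences) and 0.383% (Q5_vent, 16 sequences). Their intervals did not overlap, by a small margin (upper end 0.234% at 1 µg, lower end 0.236% in Q5_vent), and all other pairs overlapped.

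Ighv6-3 led the productive spread sequences with 20 of 215 (9.30%, interval 6.10 to 13.9), while it made up 1.80% of productive sequences with 0 substitutions. All 20 heavily mismatched sequences called Ighv6-3 (chr12:114391712-114392010) were productive, and they came from 4 libraries, with 5 to 14 substitutions each. Ighv1-22 followed with 13, Ighv1-64 with 11, and Ighv1-39 and Ighv1-53 with 10 each. No other V gene had more than 9. The same stretch of V from 4 Ighv6-3 clones shows how the substitutions differ between them; capitals mark the bases that differ from the germline gene as called, printed below each.
Ighv6-3 clone 1: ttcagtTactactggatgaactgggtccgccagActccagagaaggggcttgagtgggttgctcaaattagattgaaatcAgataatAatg
Ighv6-3 clone 1, germline as called: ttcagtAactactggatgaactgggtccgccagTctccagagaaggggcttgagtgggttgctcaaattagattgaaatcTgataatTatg
Ighv6-3 clone 2: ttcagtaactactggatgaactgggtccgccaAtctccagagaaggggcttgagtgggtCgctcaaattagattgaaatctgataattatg
Ighv6-3 clone 2, germline as called: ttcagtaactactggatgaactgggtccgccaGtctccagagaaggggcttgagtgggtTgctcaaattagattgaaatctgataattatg
Ighv6-3 clone 3: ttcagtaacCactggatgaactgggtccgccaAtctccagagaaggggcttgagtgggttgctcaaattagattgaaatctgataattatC
Ighv6-3 clone 3, germline as called: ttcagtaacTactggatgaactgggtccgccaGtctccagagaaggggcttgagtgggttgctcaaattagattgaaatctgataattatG
Ighv6-3 clone 4: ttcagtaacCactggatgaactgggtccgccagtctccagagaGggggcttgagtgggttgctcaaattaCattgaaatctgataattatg
Ighv6-3 clone 4, germline as called: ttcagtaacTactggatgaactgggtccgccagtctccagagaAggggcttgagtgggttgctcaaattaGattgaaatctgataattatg

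Clones 3 and 4 share a T-to-C change, clones 2 and 3 share a G-to-A change, and the other capitals occur in 1 of the 4. All 4 were joined to Ighj3. A clone needs an identical CDR3, so related sequences whose CDR3 also differs count as separate clones. Whether clones were related was not tested. Substitutions also varied within clones. Of the 333 spread clones, 24 had more than 1 sequence, and 13 of these were found in at least 2 libraries. An Ighv6-3 clone joined to Ighj3 had 4 sequences in 2 libraries with 6 to 8 substitutions, and an Ighv8-8 clone joined to Ighj4 had 3 sequences in 1 library with 7 to 16. An Ighv1-64 clone joined to Ighj1 had 4 sequences in 2 libraries with 5 or 6.

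Base changes were counted from the germline base to the sequenced base. In productive spread sequences 58.3% of 1561 substitutions were transitions (interval 55.8 to 60.7), with G-to-A (331) and C-to-T (258) the commonest and A-to-G (232) the third. Per 1000 aligned germline bases of the kind, G-to-A stood at 24.3, C-to-T at 21.2 and A-to-G at 15.8, while T-to-C stood at 7.29 and T-to-G at 2.37. In the recurring sequences T-to-C stood at 39.3 and C-to-T at 9.92, figures set by a few sequences counted many times over. In productive sequences with 1 or 2 substitutions 50.6% were transitions (interval 49.6 to 51.6).

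The position of substitutions relative to AID's hotspot was measured at C and G. The motif searched was C in AAC, AGC, TAC or TGC and, for the other strand, G in GTT, GCT, GTA or GCA, read in the germline sequence. For substitutions that were not recurring, the share in the motif in productive heavily mismatched sequences was 75.0% with 500 ng of DNA, 65.0% with 1 µg, 69.2% with 2.5 µg, 67.2% with 5 µg, 70.6% in Q5_Q5 and 63.5% in Q5_vent. Of the C and G bases in the germline of the same sequences, 27.5% to 29.2% lay in the motif. Each library was above its germline share, by 39.9 percentage points on average (SD 4.08, n = 6 libraries, range 34.4 to 46.3; exact two-sided sign-flip permutation test p = 0.03125, the smallest possible). In non-productive sequences the shares lay between 44.4% and 61.7%, on average 24.6 points above the germline share (SD 5.90, higher in 6 of 6 libraries, exact p = 0.03125). The difference between productive and non-productive sequences was not tested. In productive sequences with 1 or 2 substitutions 36.6% of the substitutions at C or G were in the motif, against 28.2% of germline bases. For the recurring sequences the figures were 39.0% and 28.5%.

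**Figure D5:**
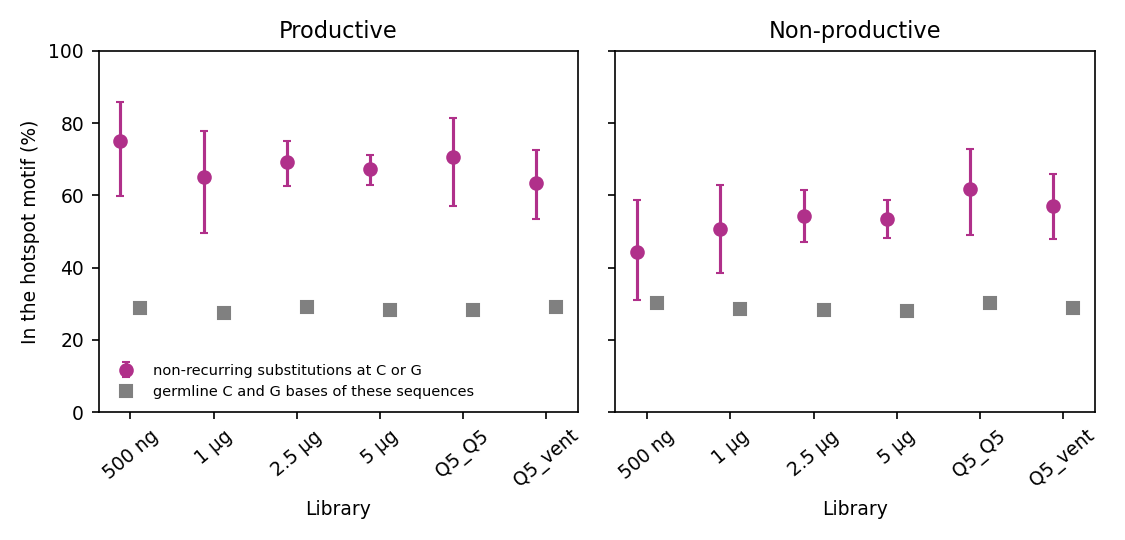
Share (percent) of non-recurring substitutions at C or G that lie in the hotspot motif (circles, with Wilson 95% intervals), and share of germline C and G bases of the same sequences that lie in it (squares), by library, for productive and non-productive heavily mismatched sequences. All circles lie above their squares, at 63.5% to 75.0% in productive and 44.4% to 61.7% in non-productive sequences.

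Substitutions of productive spread sequences were also placed relative to CDR1 and CDR2, the V-encoded loops that contact antigen. This could be read in Ighv1 genes of one layout, in which germline positions 76 to 99 were taken as CDR1 and 151 to 174 as CDR2. Of 873 substitutions in 127 productive spread sequences, 225 lay in these loops (25.8%, interval 23.0 to 28.8), against 17.0% of the aligned bases. Per base that is 1.70 times the density of the framework around them. In 52 non-productive spread sequences 20.7% of 382 substitutions lay in the loops (interval 16.92 to 25.02), against 16.5% of aligned bases. The ratio there was 1.32, so an excess in the loops was not limited to productive spread sequences. No test was run, and sequences of 1 clone share substitutions. In productive sequences with 1 or 2 substitutions the share was 15.6% of substitutions and 15.6% of aligned bases, a ratio of 1.00. In the productive spread sequences 69.1% of these substitutions changed the amino acid (interval 65.9 to 72.0), against 73.9% in productive sequences with 1 or 2 (interval 72.7 to 75.2). In the non-productive spread sequences it was 77.0% (interval 72.5 to 80.9).

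The J genes, which lie outside the V alignment, differed a little between heavily mismatched sequences and those with 0 substitutions. Ighj4 made up 26.4%, 25.9%, 21.2%, 23.3%, 26.1% and 15.8% of heavily mismatched sequences from 500 ng to Q5_vent, against 27.3%, 27.5%, 26.3%, 27.0%, 27.6% and 26.5% of those with 0 substitutions. It was lower in 6 of 6 libraries, by -3.90 points on average (SD 3.68; exact p = 0.03125, adjusted 0.0437). Ighj3 was higher by 3.41 points (SD 2.56) and Ighj2 by 2.23 points (SD 1.25), each in 6 of 6 libraries with the same exact p. Ighj1 averaged -1.74 points, lower in 5 of 6 (exact p = 0.125, adjusted 0.135). These differences pool productive and non-productive sequences, and the shares move with the productive flag. Among productive sequences, Ighj2 made up 21.9% of heavily mismatched ones, against 28.8% with 0 substitutions, and Ighj1 25.8% against 19.7%. Both lie on the other side from the pooled differences. Among non-productive sequences so does Ighj3, at 29.12% against 30.02%. The other J shares kept the pooled side, and these splits were not tested. Among non-productive sequences alone, Ighj2 and Ighj4 made up 32.4% and 22.1% of the recurring sequences, against 31.2% and 22.4% of those with 0 substitutions. Under 8 other settings, Ighj2, Ighj3 and Ighj4 no longer had 1 side in all 6 libraries under 7, 4 and 7 of them, and without the recurring sequences no J gene had. In productive spread sequences Ighj1 made up 28.8% (interval 23.2 to 35.2) and Ighj2 21.4% (16.4 to 27.4), against 19.7% and 28.8% of productive sequences with 0 substitutions; these values were picked after they were seen and carry no test.

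D family use differed as well, with productive and non-productive sequences pooled. Of heavily mismatched sequences 14.1% were productive, against 74.6% of those with 0 substitutions. Among sequences with 0 substitutions, the distance from V to J averaged 18.4 bases in productive and 19.9 bases in non-productive ones. D families, the share without a D call and the bases between segments were not split by the productive flag. The part of this flag in the differences was not tested. DSP2, the largest D family of the mouse, averaged 46.3% of heavily mismatched sequences and 41.8% of those with 0 substitutions, a difference of 4.49 points (SD 1.57, higher in 6 of 6 libraries; exact p = 0.03125, adjusted 0.0437). DST4 averaged 3.27% and 5.81% (difference -2.54 points, lower in 6 of 6, same p). A D gene was not called in 3.76% of heavily mismatched sequences, against 5.47% of those with 0 substitutions (difference -1.71 points, lower in 6 of 6, same p). DFL16 (0.744 points, higher in 4 of 6; exact p = 0.406) and DQ52 (-1.10 points, lower in 5 of 6; exact p = 0.0938) did not pass. Heavily mismatched sequences had 9.21 bases between the segments on average, against 7.73 bases (difference 1.49, SD 0.574, higher in 6 of 6, same p). Without the recurring sequences DSP2 was at -1.23 points and the share without a D call at 5.28 points, both turned in sign, and DST4 was at -1.31 points, lower in 5 of 6 libraries. With V gene weights the calls ended for DSP2 (1.45 points, higher in 4 of 6), DST4 (-1.21, lower in 5 of 6) and the bases between segments (0.707 bases, higher in 5 of 6; exact p = 0.0625), and the share without a D call turned to 1.14 points. The number of reads grouped per sequence averaged 10.7 in heavily mismatched sequences and 11.0 in those with 0 substitutions, and the difference was within the spread of the libraries (-0.204, SD 0.263, exact p = 0.125).

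CDR3, the loop formed where V, D and J meet, was longer in heavily mismatched sequences as deposited, but not without those called Ighv1-87. In productive sequences the deposited CDR3 averaged 45.8 bases in heavily mismatched ones and 37.9 bases in those with 0 substitutions (difference 7.87 bases, SD 1.59, higher in 6 of 6 libraries; exact p = 0.03125, adjusted 0.0437). In non-productive sequences it averaged 48.0 and 38.3 bases (difference 9.70, SD 1.34, higher in 6 of 6, same p). Sequences called Ighv1-87 had a mean CDR3 of 64.8 bases, and a median of 30 bases of it were V sequence, against 6 in sequences with 0 substitutions. Without Ighv1-87 the productive difference was -1.59 bases, higher in only 1 of 6 libraries (exact p = 0.0625), and the non-productive difference 0.459 bases (higher in 5 of 6, exact p = 0.281). The productive difference also moved with the threshold, to 3.19 bases with 3 or more substitutions and 14.2 bases with 8 or more, and with V gene weights it was -1.46 bases. Measured from the end of V to the start of J, Ighv1-87 sequences averaged 22.3 bases and those with 0 substitutions 18.8 bases. Of the Ighv1-87 sequences 800 of 933 were non-productive, and non-productive sequences with 0 substitutions averaged 19.9 bases. Sequences called Ighv3-2 averaged 20.7 bases and those called Ighv1-27 21.4 bases. Productive spread sequences averaged a CDR3 of 36.1 bases (SD 7.82 over sequences), against 37.9 bases (SD 6.77) in productive sequences with 0 substitutions.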

How the data were processed

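Each deposited file holds 1 row per deduplicated VDJ-seq sequence of 1 library. The submitters' processing notes name mm10 as the build, with Bowtie2 2.3.2 and Trim Galore 0.4.4 as tools. For the gene calling these notes name no tool, while the header of the CDR3 column carries the name IgBLAST, without a version. Columns of a row give, per the file headers, gene calls, flags for productive, stop and frame, lengths in bases, a CDR3 and an alignment trace; V identity is deposited as a fraction from 0 to 1, and other alignment values as a score, neither of which entered a result. The trailing number of a sequence name was taken as reads, an inference from the values.

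Substitutions were read from the trace, sequenced base first; germline V bases rebuilt from it for 216 alleles gave 0 conflicts. V genes are the first gene called with alleles merged; 4.81% of heavily mismatched sequences and 11.2% of those with 0 substitutions named several genes, which makes counts of closely similar genes uncertain. Of 176 V gene names, 135 were found in RefSeq GRCm38.p6, whose coordinates are given. Printed V sequences are those of the deposited rows.

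Differences were taken within each library (heavily mismatched minus 0 substitutions) and tested by an exact two-sided sign-flip permutation test over 6 libraries, adjusted by Benjamini-Hochberg over 14 measures; the smallest p is 0.03125. The hotspot share was tested by itself in productive and non-productive sequences. Library totals ran between 8704 and 112320 sequences, and shares carry Wilson 95% intervals, which cover counting error only. The choice used the number of substitutions, and no test was run on that number; the hotspot share comes from the same alignment trace but from the sequence around each substitution, which the choice did not use. The members, gene lists and tests were chosen with earlier results of these data known, and the grouping of whole V sequences was added after seeing the data. Named V genes are the 10 with the most heavily mismatched sequences, the 10 with the highest share and up to 5 with the most productive ones; the genes of the smaller recurring sequences were named after their values were seen. Trace reading and the measure of recurring substitutions were tested on simulated data. The grouping of whole V sequences, the hotspot share and the placing in CDR1 and CDR2 were not. No genome was used, so the recurring sequences were not placed in it. Tools were edlib 1.3.9.post1, SciPy 1.17.1, pandas 2.3.3 and NumPy 2.4.6 under Python 3.11.15.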

Additional observations from a re-analysis of the deposited data

How the results depend on the processing

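Differences are heavily mismatched sequences minus those with 0 substitutions, and a call here means the same side in every library; causes were not tested. The in-frame difference kept its call under 8 other settings and with each library left out, where it lay between -38.9 and -37.6 points; with V gene weights it was -21.5 points. Counting sequences with 3 or more or 8 or more substitutions, the heavily mismatched share was 1.66% or 0.760%, the recurring share of productive substitutions 41.7% or 64.1%, and that of non-productive ones 91.5% with 3 or more. With a cut of 10%, 3 V genes passed. Calls were lost for Ighj2 (1.53 points with 3 or more substitutions, 2.38 with 8 or more, 1.77 with single-gene V calls, 1.18 with alignments of at least 150 bases, 1.95 without gaps, 1.23 with V gene weights, 0.452 without unclear primer tags), for Ighj3 (2.55 with 8 or more, 3.32 with 1 sequence per clone, 3.75 without gaps, 3.36 with V gene weights) and for Ighj4 (-3.97 with 3 or more, -2.71 with 8 or more, -3.46 with single-gene calls, -2.47 with long alignments, -4.03 without gaps, -3.82 with V gene weights, -2.69 without unclear tags). DST4 lost its call with 3 or more substitutions (-1.68), while with 8 or more DQ52 (-1.99) and reads per sequence (-1.26) gained one and the productive distance from V to J turned to 0.575 bases. Productive CDR3 kept its call at 3.19 bases with 3 or more and 14.2 with 8 or more. Without gaps, the share with no D call lost its call (-0.525), and DFL16 (-0.865), DQ52 (0.0471) and reads (0.896) turned. V gene weights, which use only the 658 sequences whose V gene also had unmismatched ones, ended the calls for DSP2 (1.45), DST4 (-1.21) and the bases between segments (0.707), and turned the share with no D call (1.14), DFL16 (-2.33), CDR3 length (-1.46 bases productive, -0.887 non-productive) and the non-productive distance from V to J (-0.0356).

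Alternatives chosen after seeing the data gave these values. Without the recurring sequences, calls were lost for Ighj2 (1.08), Ighj3 (1.39), Ighj4 (-2.20), DST4 (-1.31) and the in-frame share (-10.8), reads gained one (-1.42), and the signs turned for no D call (5.28), DFL16 (-7.71), DSP2 (-1.23), DQ52 (2.38), CDR3 length (-1.84 bases productive, -1.08 non-productive) and the non-productive distance from V to J (-0.945); bases between segments kept their call. Without Ighv1-87, Ighj4 (-4.83), no D call (-1.07), non-productive CDR3 (0.459) and its distance from V to J (0.782) lost their calls, and reads (0.0179) and productive CDR3 (-1.59) turned. Grouping with 0, 1 or 4 edits gave 10, 10 and 9 recurring sequences holding 2229, 2330 and 2351 sequences.

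Leaving out each library in turn gave ranges of -2.44 to -0.994 for Ighj1 (a call without Q5_vent), 1.83 to 2.57 for Ighj2, 2.92 to 4.09 for Ighj3, -4.51 to -2.55 for Ighj4, -1.58 to -0.787 for DQ52 (a call without Q5_Q5), 0.303 to 1.36 for DFL16, 4.09 to 4.90 for DSP2, -2.76 to -2.23 for DST4, -1.82 to -1.61 for no D call, 1.32 to 1.67 for bases between segments, -0.274 to -0.151 for reads, 7.46 to 8.30 and 9.22 to 9.92 for productive and non-productive CDR3, -1.07 to -0.491 and 1.46 to 1.77 for the distance from V to J, and 38.6 to 41.0 and 23.3 to 26.7 for the hotspot difference. No paired analysis was possible because each group is 1 library with no replicate number; the 2 kinds of sequence were paired within libraries. With 121 to 221 heavily mismatched sequences in 4 libraries, single shares there carry wide intervals.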
